A study of Mus musculus with 2 samples.

Results

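The antioxidant, glutathione and iron storage genes are a list of 37 genes chosen by symbol: the transcription factor NRF2 and its inhibitor, NRF2 target enzymes, the enzymes of glutathione, the thioredoxin and peroxiredoxin systems, superoxide dismutases, catalase and the ferritin chains. The rule uses gene symbols only. A row was found for 36 of the 37 among 14886 protein-coding genes, and Fth1, the ferritin heavy chain gene, was not analysed here. The counts are of ribosome footprints, the pieces of mRNA that a translating ribosome protects from nuclease, in mouse lung fibroblasts. The series concerns lung fibrosis after irradiation and rosmarinic acid. It provides 1 library labelled IR and 1 labelled NC. The labels do not expand either abbreviation and give no dose, time, strain, age, passage or genotype, and they do not say whether these fibroblasts received radiation. A footprint count reflects mRNA amount and ribosomes per mRNA together. In such bulk libraries fewer cells of a type and less RNA per cell cannot be told apart.

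Sequencing depth was 888835 counts in IR and 695446 in NC. Each group has 1 library, so there is no replicate spread, and no difference below was tested between conditions. Every fold is IR over NC after TMM scaling (a trimmed mean of ratios that sets the libraries to a common level), and its 95% interval (exact binomial) covers counting error only. Reads copied by PCR would make that error larger. All 10 fibroblast markers looked up had counts in both libraries, with Col1a1, the type I collagen chain, at 3455 in IR and 3124 in NC. They went both ways. Intervals lay above 1-fold for Col1a1, Vim, Pdgfrb (IR 131, NC 80) and Dcn (IR 135, NC 88). Intervals lay below it for Col3a1 (IR 348, NC 519), Pdgfra (IR 38, NC 66) and Fap (IR 5, NC 19). Genes of the list held 2485 counts (0.280% of the library) in IR and 2208 (0.317%) in NC. A mean of at least 20 counts over the libraries, used below as a floor, was reached by 25 of the 36 genes, and 8 reached 100. Of the 25, 5 had fewer than 20 counts in 1 library: Keap1, Gpx7, Cat and Blvrb in NC, and Gsr in IR. The other 11 genes are given as counts with wide intervals.

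NRF2, encoded by Nfe2l2, is the main transcriptional activator of antioxidant genes. KEAP1 holds it for degradation in unstressed cells and loses that grip when its cysteines are oxidised, after which NRF2 binds antioxidant response elements in the promoters of its targets. Superoxide is turned into hydrogen peroxide by superoxide dismutases, and the peroxide is removed by catalase, by peroxiredoxins fed from thioredoxin, and by glutathione peroxidases fed from glutathione. Ferritin stores iron in a form that cannot drive peroxide into more reactive radicals. In lung fibroblasts, this network is known for buffering the oxidants that follow irradiation and that accompany the change into myofibroblasts.

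Antioxidant response elements are shown first, since they are the sequence by which NRF2 recognises its targets. The element's core, TGACNNNGC, was searched on both strands, where it reads GCNNNGTCA on the other strand, in RefSeq windows (GRCm38.p6) of 300 bases from 250 before to 50 after each gene's start. Windows were found for 31 of the 37 genes, and 7 of the 31 (22.6%) held a core, against 13.99% of 27025 genes with a window and 17.8% of 4618 such genes on the count floor. The 7 were Gclm, Mgst1, Nfe2l2, Prdx1, Sod1, Srxn1 and Txnrd1. For Srxn1 the match lay after the start site and is named only. The other 6 are printed on the gene's own strand, 5′ to 3′, with the core in capitals and up to 20 bases on either side. They began from 240 bases (Nfe2l2) to 56 bases (Mgst1 and Sod1) before the start. A match is a description of these letters, not a bound site, and elements farther from the start would not be seen. Spellings with G in place of the C of TGAC were not searched. Such a stretch, TGAGTCAGC, lies before the start in the windows of Gstp1 and Srxn1, and on the other strand in that of Osgin1. Genes without a core here are therefore not shown to lack an element.
Gclm, chr3:122245403-122245451, plus strand: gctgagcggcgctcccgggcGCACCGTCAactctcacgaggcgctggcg
Mgst1, chr6:138140451-138140499, plus strand: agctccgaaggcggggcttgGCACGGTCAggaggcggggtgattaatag
Nfe2l2, chr2:75704875-75704913, minus strand: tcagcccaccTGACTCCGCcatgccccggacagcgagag
Prdx1, chr4:116685446-116685494, plus strand: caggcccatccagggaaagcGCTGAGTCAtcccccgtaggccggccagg
Sod1, chr16:90220686-90220734, plus strand: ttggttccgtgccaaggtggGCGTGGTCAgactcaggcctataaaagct
Txnrd1, chr10:82859094-82859142, plus strand: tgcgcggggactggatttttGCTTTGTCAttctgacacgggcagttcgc

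For most genes with a core the counts did not resolve a direction. Of the 7, Prdx1 was higher in IR beyond counting error, with 125 footprints in IR against 66 in NC. For the other 6 the interval held 1-fold, for example Sod1 (IR 200, NC 165), Txnrd1 (IR 186, NC 203) and Nfe2l2 (IR 53, NC 48). Catalase, Keap1 and Gpx7, which had the 3 largest folds on the floor, had no core in the window searched.

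The IR library had more footprints than the NC library for Cat, Gpx7, Keap1, Prdx1 and Ftl1, and fewer for Gsr, Gstm1, Prdx5 and Txn1. These were the 5 and 4 genes on the floor whose interval stayed on the same side of 1-fold under TMM and all 5 other ways of scaling the libraries. Among these ways, DESeq2 size factors and the upper quartile gave identical library sizes, so they are not separate checks. The largest fold above was Cat at 3.54 and the largest below was Gsr, 2.49-fold lower. Sqstm1, Hmox1, Blvrb and Prdx3 were higher as well under TMM, but lost this under at least 1 other scaling. In all, 9 of the 25 genes (36.0%) had an interval above 1-fold, where 23.5% of all 5989 genes on the floor did, and 4 (16.0%) an interval below it, where 23.7% did. At least 2-fold higher were 3 of 25 (Cat, Gpx7 and Keap1), against 11.8% of all genes, and at least 2-fold lower was 1 (Gsr), against 11.9%. Each of these genes reached the floor only through its higher library. The lower counts were 19 (Cat), 15 (Keap1) and 13 (Gpx7) in NC, and 13 (Gsr) in IR. With a mean of at least 100 counts, 3 of 8 genes lay above (38.2% of 1332 genes did) and 1 of 8 below (25.8%). At that mean, which Cat, Gpx7, Keap1 and Gsr do not reach, 0 of 8 were at least 2-fold higher and 0 lower. Of the 1332 genes, 12.5% and 4.58% were. Shares of the list near these backgrounds say nothing particular about its genes.

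**Figure D1:**
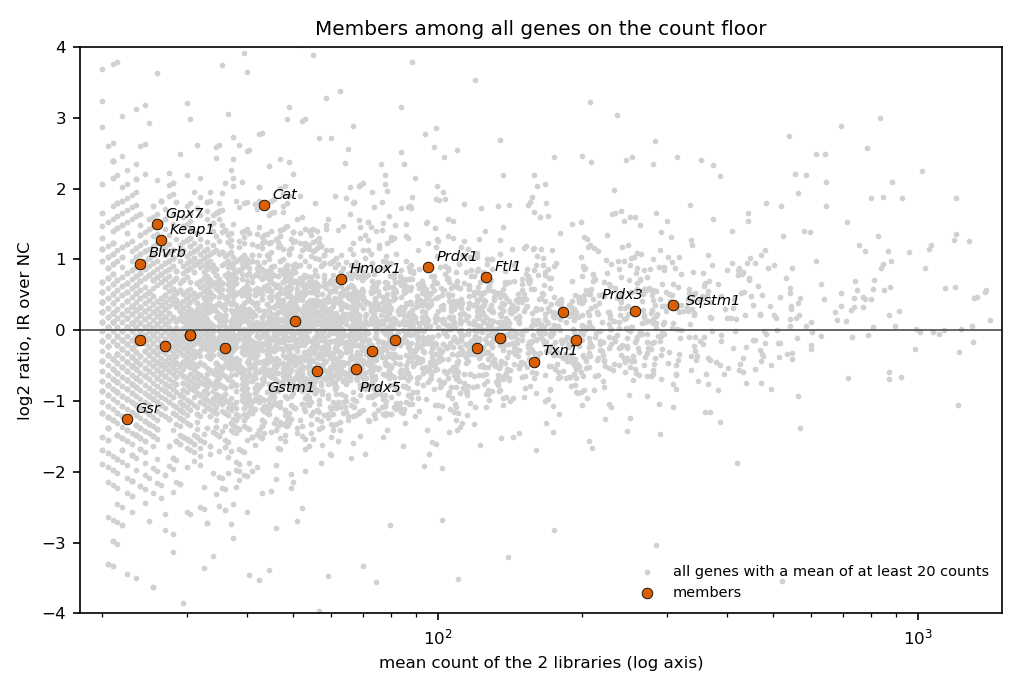
Each point is a gene with a mean of at least 20 counts, with the mean count of the 2 libraries on a log axis across and the log2 ratio of IR over NC upward. The 25 list genes are orange and those whose interval lay off 1-fold are named; 72 other genes lie outside the axes.

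As a whole the list moved little. The median log2 ratio of the 25 genes was -0.06, against -0.02 for all genes on the floor, and their mean was 0.17, which differs from the median in sign. The middle of the list ran from -0.25 (lower quartile) to 0.72 (upper quartile), while the same quartiles of all genes were -0.54 and 0.51. The SD over genes was 0.71 for the list and 0.98 for all genes. Summed over all 36 genes, the scaled level was 3142 CPM (scaled counts relative to library size) in IR and 2826 in NC, giving 1.11-fold (95% interval 1.05 to 1.18). The direction of this sum is not settled, since it was 0.881-fold with total-count scaling and 0.989-fold without the 10 most counted genes. With total-count scaling the list median was -0.39 and that of all genes -0.34, so values under that scaling are to be read against a shift of the whole table.

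**Figure D2:**
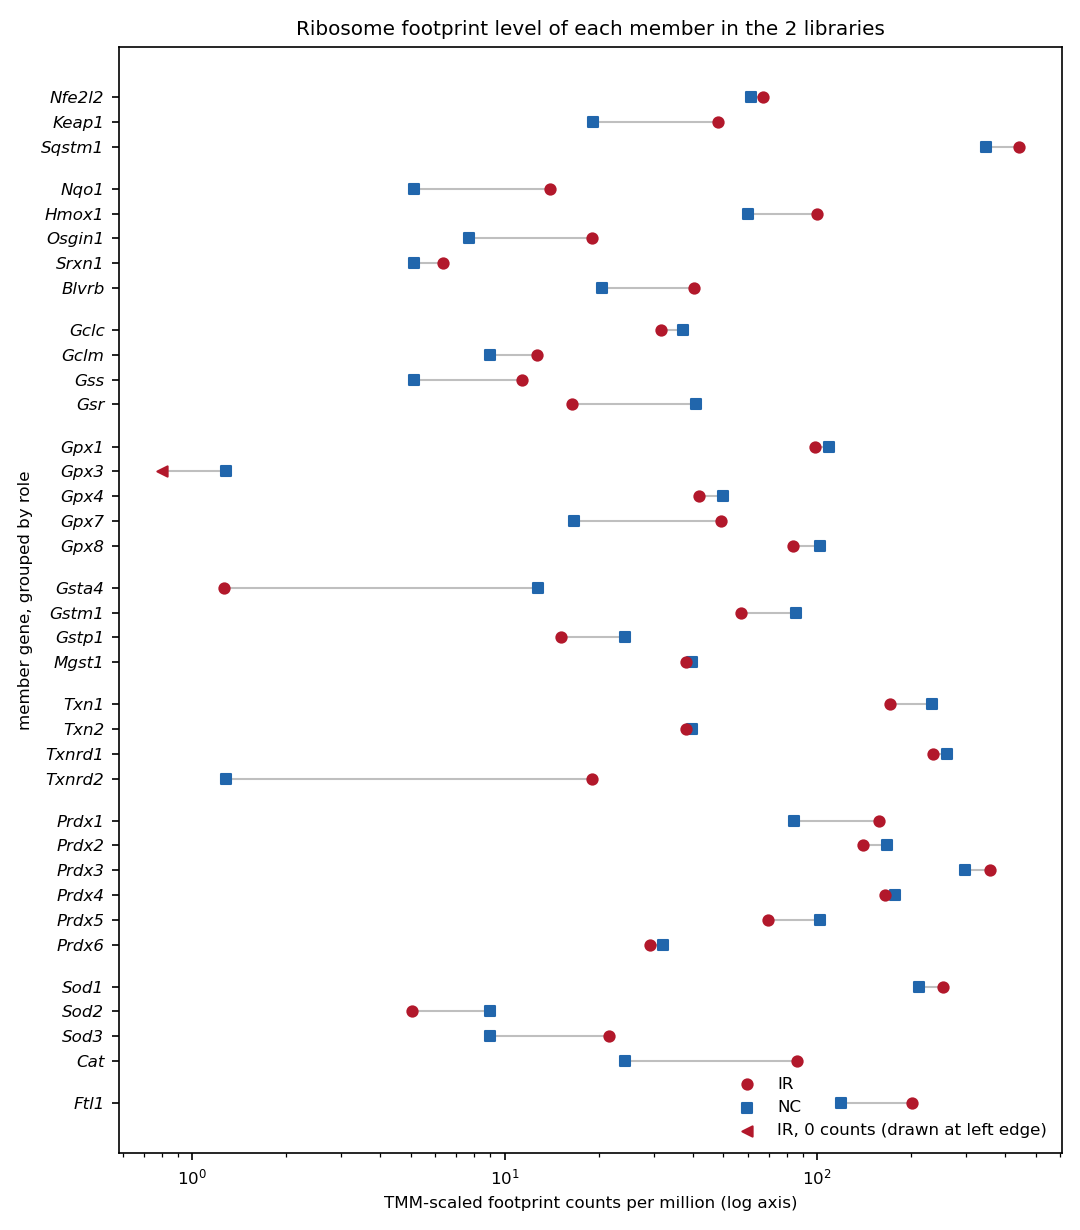
Scaled footprint CPM (log axis) of each of the 36 genes in the IR library (red circles) and the NC library (blue squares), grouped by role from NRF2 at the top to ferritin at the bottom. The widest gaps are at Txnrd2 and Gsta4, which have 1 count in one library each; levels of different genes are not comparable here, since coding lengths were not used.

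NRF2 itself was nearly level, while its inhibitor was higher in IR. Nfe2l2 had 53 footprints in IR against 48 in NC, giving 1.09-fold (0.724 to 1.65). Keap1, on chromosome 9 at 21229730 to 21239332 (mm10), had 38 footprints in IR against 15 in NC, giving 2.50-fold (1.34 to 4.90). Within this pair, Keap1 made up 41.8% of the counts in IR (Wilson 95% interval 32.2 to 52.0) and 23.8% in NC (15.0 to 35.6), a share that no scaling can move. These 2 intervals overlap. Sqstm1 encodes p62, the autophagy receptor that binds KEAP1 and takes it to degradation, and it is also an NRF2 target. It had 350 footprints in IR against 270 in NC, giving 1.28-fold (1.09 to 1.51), the highest count of the list. The Sqstm1 interval held 1-fold with scaling by total counts (fold 1.01), by total counts without the 10 most counted genes (1.14) and by a loess curve on abundance (1.12).

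The 5 genes grouped here as NRF2 target enzymes and heme breakdown had more footprints in IR, on few counts. This does not extend to the antioxidant enzymes of the list as a class. Among those, Cat, Gpx7 and Prdx1 were higher in IR, and Gsr, Gstm1 and Txn1 were lower. Hmox1, the inducible heme oxygenase that frees iron from heme, lies on chromosome 8 at 75093591 to 75100596. It had 79 footprints in IR against 47 in NC, giving 1.66-fold (1.14 to 2.44). Blvrb, biliverdin reductase B, had 32 footprints in IR against 16 in NC, giving 1.98-fold (1.05 to 3.86). Both lost this with total-count scaling, at folds of 1.32 and 1.56. Nqo1, the quinone reductase used as the standard readout of NRF2, was sparse, with 11 footprints in IR against 4 in NC, giving 2.72-fold (0.805 to 11.7). Osgin1, an oxidative stress-induced growth inhibitor, had 15 in IR and 6 in NC, and Srxn1, the sulfiredoxin that repairs overoxidised peroxiredoxins, had 5 in IR and 4 in NC. All 5 folds were above 1, and 2 of the 5 intervals excluded it. Summed, the 5 genes had 142 footprints in IR against 77 in NC, giving 1.82-fold (1.37 to 2.44), which was 1.44 with total-count scaling.

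Hmox1 and Blvrb are abundant in macrophages, and some leukocyte markers were also higher in IR. Of 12 macrophage and leukocyte markers looked up, 8 had a row, while Csf1r, Mrc1, Marco and Fcgr3 had none. The 8 summed to 471 footprints in IR against 327 in NC. Most of this was Cd74, with 244 in IR and 169 in NC, and Cd3e, with 178 in IR and 157 in NC. The Cd3e interval held 1-fold. The remaining 6 summed to 49 footprints in IR against 1 in NC: in IR, Cd14 had 27, Ptprc 8, Itgam 6, Lyz2 4 and Cd68 3, all of which were at 0 in NC, and Emr1 (Adgre1) had 1 in each library. Their part in the Hmox1 and Blvrb result was not tested. Mesothelial markers also differed, with 478 footprints in IR against 101 in NC over 4 genes, mostly Wt1. Endothelial markers had 6933 in IR and 2662 in NC over 7 genes, mostly Emcn. Of the others, Pecam1 had 8 in IR and 2 in NC, and Cldn5 went the other way, with 0 in IR and 5 in NC. Epithelial markers had 91 in IR and 33 in NC over 6, mostly Abca3 with 73 in IR and 27 in NC. Epcam and Nkx2-1 each had 0 in IR and 1 in NC. Sums carried by single genes do not show that these cell types were present, and any part of theirs in the results below was not tested either.

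**Figure D3:**
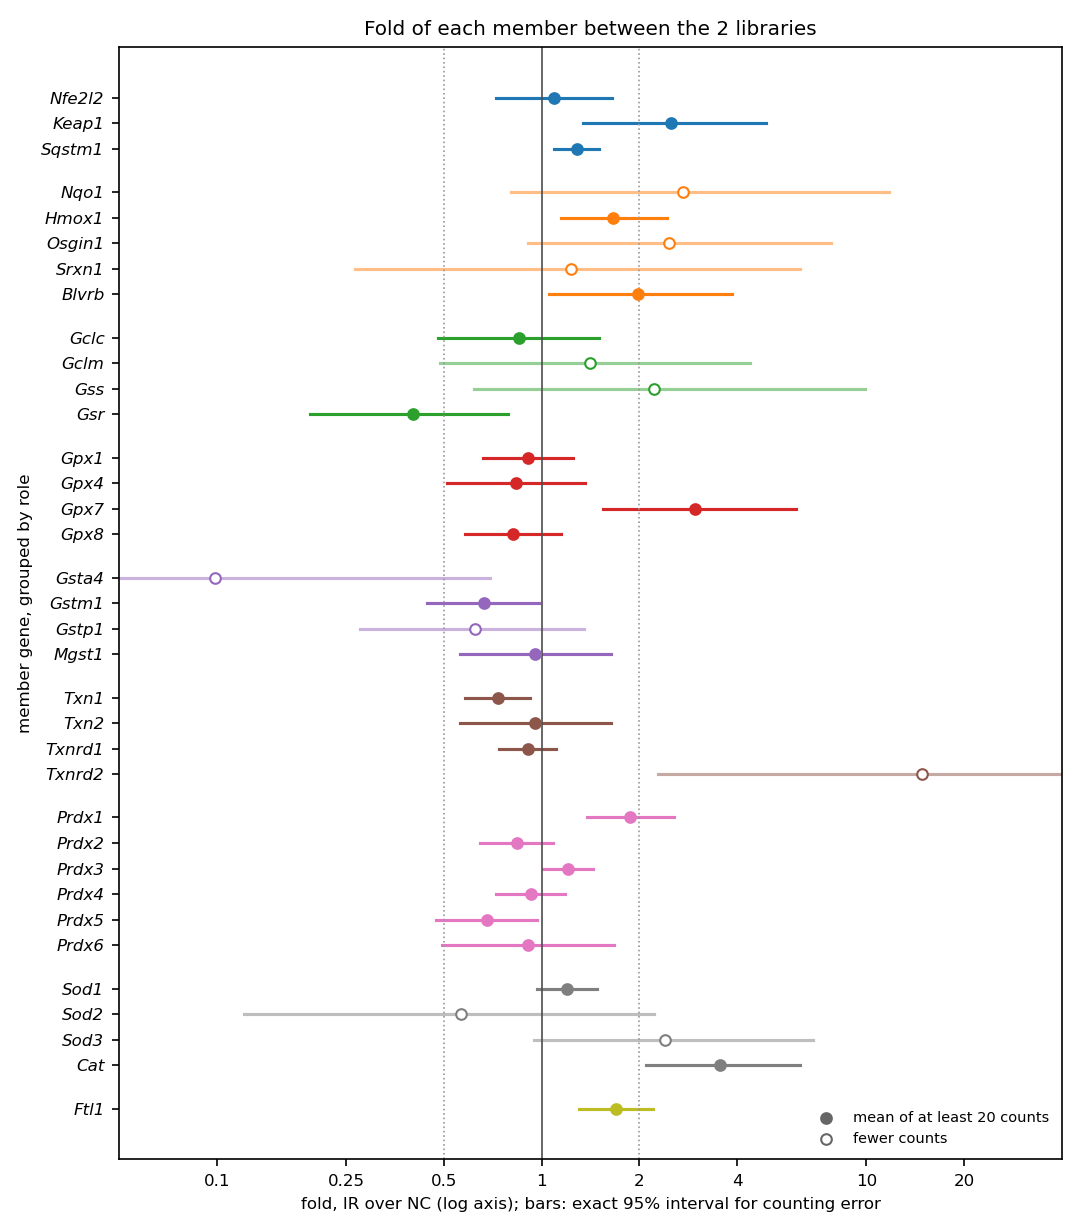
Fold of IR over NC (log axis) for the 35 genes with counts in both libraries, with the exact 95% interval for counting error, grouped by role; open circles are genes below a mean of 20 counts and dotted lines mark 2-fold. Cat, Gpx7, Keap1 and Prdx1 lie to the right of 1-fold and Gsr to the left; the bars of Gsta4 and Txnrd2 run past the axis.

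Glutathione synthesis did not move detectably, but glutathione reductase was lower in IR. Gclc, the catalytic subunit of glutamate-cysteine ligase that limits the rate of synthesis, had 25 footprints in IR against 29 in NC, giving 0.852-fold (0.478 to 1.51). Its modifier subunit Gclm had 10 in IR and 7 in NC, and Gss, glutathione synthetase, had 9 in IR and 4 in NC. Differences of the size these intervals span could have been missed. Gsr regenerates reduced glutathione with NADPH and lies on chromosome 8 at 33652523 to 33698163. It had 13 footprints in IR against 32 in NC, 2.49-fold lower (1.27 to 5.17). Txnrd1, which does the same for thioredoxin, had 186 footprints in IR against 203 in NC, giving 0.905-fold (0.738 to 1.11). Of the counts of these 2 reductases, Gsr held 6.53% in IR (3.86 to 10.9) and 13.6% in NC (9.81 to 18.6), with overlapping intervals.

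Glutathione peroxidases were level as a family, and Gpx7 alone among them had an interval off 1-fold. Gpx1, the main cytosolic enzyme, had 78 footprints in IR against 85 in NC. Gpx4, which reduces lipid peroxides in membranes and holds back ferroptosis, had 33 footprints in IR against 39 in NC, giving 0.836-fold (0.509 to 1.36). These enzymes carry selenocysteine, whereas Gpx7 and Gpx8 use cysteine and work in the endoplasmic reticulum, where protein disulfides are formed. Gpx7, on chromosome 4 at 108400390 to 108406961, had 39 footprints in IR against 13 in NC, giving 2.96-fold (1.55 to 6.05). Gpx8 had 66 footprints in IR against 80 in NC, giving 0.815-fold (0.579 to 1.14). Within the family Gpx7 held 18.1% of the counts in IR (13.5 to 23.7) and 5.96% in NC (3.52 to 9.93), and these intervals do not overlap. The secreted Gpx3 had 0 footprints in IR against 1 in NC, where a count of 0 allows up to 3 counts, or 3.79 CPM. Summed, the family had 216 footprints in IR against 218 in NC, giving 0.979-fold (0.807 to 1.19). That sum lay just above 1-fold (1.01) under loess and at 0.775 with total-count scaling.

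Glutathione transferases attach glutathione to electrophiles, and the 4 on this list had fewer footprints in IR when summed. Gstm1 had 45 footprints in IR against 67 in NC, 1.51-fold lower (1.02 to 2.25). The mu-class genes have near-identical copies, and how reads shared among them were counted is not given in the sources used here. Over the 7 Gstm genes in the table, a set chosen after their values were seen, the counts were 171 footprints in IR against 193 in NC, giving 0.875-fold (0.708 to 1.08), so the family's interval held 1-fold. Gstp1, the pi-class enzyme, had 12 in IR and 19 in NC, and Mgst1, the microsomal enzyme, 30 in IR and 31 in NC. Gsta4, which clears the lipid peroxidation product hydroxynonenal, had 1 footprint in IR against 10 in NC, 10.1-fold lower (1.44 to 439). The 4 list genes summed to 88 footprints in IR against 127 in NC, 1.46-fold lower (1.10 to 1.94), and all 4 folds were below 1. This does not hold for the class. Of transferases outside the list, Mgst2 (IR 111, NC 26) and Gsto1 (IR 162, NC 120) had intervals above 1-fold. Those of Gstm2, Gstm5 and Gstm6 held 1-fold. Gstm7, below the floor, had 8 in IR and 0 in NC, with an interval above 1-fold.

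In the thioredoxin system, the cytosolic pair was slightly lower in IR. Txn1, the cytosolic thioredoxin, lies on chromosome 4 at 57943373 to 57956411. It had 135 footprints in IR against 182 in NC, 1.36-fold lower (1.09 to 1.72). With Txnrd1, the pair summed to 321 footprints in IR against 385 in NC, 1.21-fold lower (1.04 to 1.41). Txn2, the mitochondrial thioredoxin, had 30 footprints in IR against 31 in NC. Its reductase Txnrd2 had 15 in IR and 1 in NC, a ratio of 14.8 (2.28 to 624) that rests on very few reads and is uncertain. The 5 selenoproteins of the list (Gpx1, Gpx3, Gpx4, Txnrd1 and Txnrd2) summed to 312 footprints in IR against 329 in NC, giving 0.937-fold (0.80 to 1.10).

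Peroxiredoxins were nearly level in sum but not in composition. The family had 727 footprints in IR against 673 in NC, giving 1.07-fold (0.960 to 1.19) that turns to 0.845 with total-count scaling and to 0.950 without the 10 most counted genes. Prdx1, the cytosolic peroxiredoxin shown above with a core in its promoter, lies on chromosome 4 at 116685544 to 116700822. Its 125 footprints in IR against 66 in NC gave a fold of 1.87 (1.38 to 2.56). Prdx2, its closest relative, was not higher, with 111 footprints in IR against 131 in NC, giving 0.837-fold (0.644 to 1.09). Prdx1 thus made up 17.2% of the family's counts in IR (14.6 to 20.1) and 9.81% in NC (7.78 to 12.3), without overlap of the intervals.

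Prdx3 and Prdx5, the mitochondrial peroxiredoxins, had folds on opposite sides of 1 under TMM. Prdx3 had 283 footprints in IR against 232 in NC, giving 1.21-fold (1.01 to 1.44). This fold was 0.954 with total-count scaling and its interval held 1-fold under loess and without the 10 most counted genes, so its direction is not settled. Prdx5, found in mitochondria, peroxisomes and cytosol, had 55 footprints in IR against 80 in NC, 1.47-fold lower (1.03 to 2.11). Prdx5 held 7.57% of the family's counts in IR (5.86 to 9.72) and 11.9% in NC (9.66 to 14.6), and these intervals overlap slightly. Prdx4, in the endoplasmic reticulum, had 130 in IR and 139 in NC, and Prdx6, which also acts on phospholipid peroxides, 23 in IR and 25 in NC. Prdx2 overlaps Rnaseh2a (42 footprints in IR against 44 in NC) and Prdx5 overlaps Trmt112 (3 in IR and 2 in NC), each on the opposite strand. Further overlaps on the opposite strand were those of Sqstm1 with 3010026O09Rik (8 in IR and 11 in NC), Gss with Acss2 (5 in IR and 14 in NC) and Gpx8 with Cdc20b (0 in IR and 2 in NC). Without a stated strand setting, reads in such overlaps cannot be assigned.

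**Figure D4:**
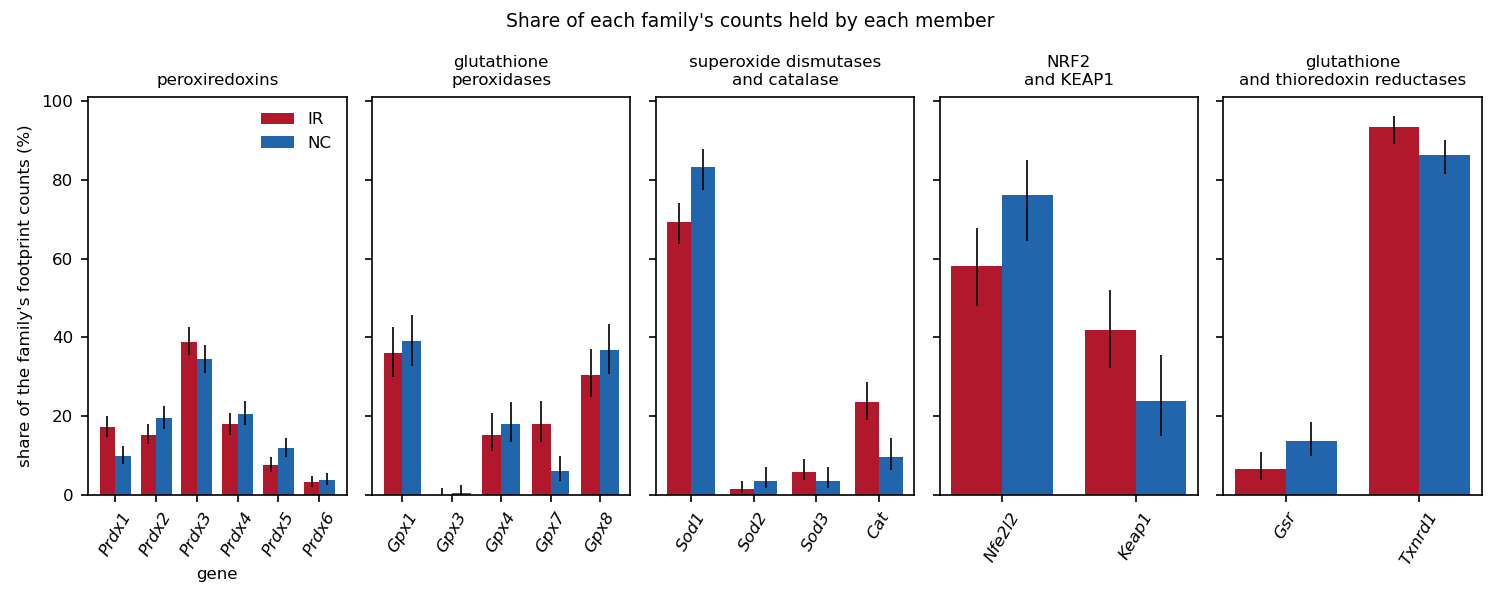
Share of a family's footprint counts (%) held by each gene in IR (red, left) and NC (blue, right), with Wilson 95% intervals for counting error. Prdx1, Gpx7 and Cat hold a larger share of their families in IR, with intervals that do not overlap; the shares do not depend on the scaling of the libraries.

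Catalase had the largest fold on the floor among the list's genes. Cat, the peroxisomal enzyme that splits hydrogen peroxide without a cofactor supply of thiols, lies on chromosome 2 at 103453849 to 103485160. It had 68 footprints in IR against 19 in NC, giving 3.54-fold (2.10 to 6.23), and from 2.80 to 3.70 under the other scalings. Sod1, the cytosolic superoxide dismutase, had 200 footprints in IR against 165 in NC, giving 1.20-fold (0.970 to 1.48), which was 0.948 with total-count scaling. Sod3, the extracellular enzyme, had 17 footprints in IR against 7 in NC, giving 2.40-fold (0.946 to 6.84), and Sod2, the mitochondrial enzyme, 4 in IR and 7 in NC. Among these 4 genes Cat held 23.5% of the counts in IR (19.0 to 28.7) and 9.60% in NC (6.23 to 14.5), and Sod1 held 69.2% in IR (63.7 to 74.2) and 83.3% in NC (77.5 to 87.9). For both genes the intervals do not overlap. The sum of all 4 was 289 footprints in IR against 198 in NC, giving 1.44-fold (1.20 to 1.74), and 1.14 with total-count scaling. Without Sod1 it was 89 footprints in IR against 33 in NC, giving 2.66-fold (1.77 to 4.10).

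Of the ferritin chains only the light chain was measured. Ftl1, on chromosome 7 at 45457944 to 45459884, had 159 footprints in IR against 93 in NC, giving 1.69-fold (1.30 to 2.21) that ranged from 1.34 to 1.71 under the other scalings. Ferritin translation is known to be held back by iron regulatory proteins bound to the start of its mRNA when iron is scarce, while the same proteins protect the mRNA of the transferrin receptor. Tfrc, that receptor, had 40 footprints in IR against 22 in NC, giving 1.80-fold (1.04 to 3.17). Aco1, which encodes an iron regulatory protein, had 75 footprints in IR against 52 in NC, giving 1.42-fold (0.987 to 2.07). Ftl1 and Tfrc were both higher in IR under TMM. For Tfrc no other scaling was used, and its interval came close to 1-fold. Ferritin genes have processed copies in the genome, and the handling of reads that match several places is not given in the sources used here.

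Around the list, 148 further genes of the same pathways were looked up in 8 lists, 129 had a row and 76 reached the floor. Their folds were computed under TMM only, so how they depend on scaling was not examined. Of the 76, 15 (19.7%) had an interval above 1-fold and 18 (23.7%) below it, with a median log2 ratio of -0.02. All genes on the floor had 23.5% above and 23.7% below, and the counts of each list that follows are to be read against these shares. Of the 76, 8 had fewer than 20 counts in IR and 5 in NC, so they reached the floor through the other library, and these include 7 of the 18 genes below and 2 of the 15 above. Of 10 glutaredoxins, thiol repair enzymes and redox sensors, 0 lay above and 6 below, and 4 held 1-fold, with a median of -0.58 against -0.02 for all genes on the floor. Of the 6 below, 3 (Msra, Txndc17 and Glrx3) had fewer than 20 counts in IR and reached the floor through NC. Msra, which repairs oxidised methionine, had 8 footprints in IR against 34 in NC, 4.30-fold lower (1.95 to 10.8). Txndc17, a small thioredoxin-like protein, had 15 footprints in IR against 47 in NC, 3.17-fold lower (1.74 to 6.11). Msrb3 and Tmx1 were at the top of that list, Msrb3 with 28 in IR and 18 in NC and Tmx1 with 157 in IR and 129 in NC, and both intervals held 1-fold.

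Of 13 iron handling genes on the floor, 1 lay above and 5 below, with a median of -0.07. Fbxl5, the iron-sensing subunit of the ligase that degrades iron regulatory protein, had 16 footprints in IR against 57 in NC, 3.61-fold lower (2.04 to 6.73). Slc25a28, a mitochondrial iron importer, had 19 footprints in IR against 50 in NC, 2.66-fold lower (1.54 to 4.78). Heme genes split, with 2 of 7 above and 1 below. Of heme synthesis, Ppox had 38 in IR and 14 in NC, and Urod 41 in IR and 21 in NC. Fech, which puts iron into heme, had 16 footprints in IR against 33 in NC, 2.09-fold lower (1.12 to 4.06), and Slc48a1, a heme transporter, had 38 in IR and 42 in NC. Fech reached the floor through NC and Ppox through IR.

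Partners and regulators of NRF2 went both ways, with 2 of 9 above and 3 below. Mafk, a small MAF protein that pairs with NRF2 on DNA, had 99 footprints in IR against 44 in NC, giving 2.22-fold (1.54 to 3.25), and it overlaps Tmem184a. Cul3, the scaffold of the ligase that KEAP1 directs at NRF2, had 59 footprints in IR against 31 in NC, giving 1.88-fold (1.20 to 3.01). Keap1 and Cul3, partners in that ligase, were both higher in IR under TMM, the only scaling used for Cul3. Rbx1, from the same list, was not, with 19 footprints in IR against 22 in NC and an interval that held 1-fold. Gsk3b, a kinase that marks NRF2 for another route of degradation, had 36 footprints in IR against 83 in NC, 2.33-fold lower (1.56 to 3.55). Crebbp, a coactivator that acetylates NRF2, had 27 footprints in IR against 92 in NC, 3.45-fold lower (2.23 to 5.51).

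**Figure D5:**
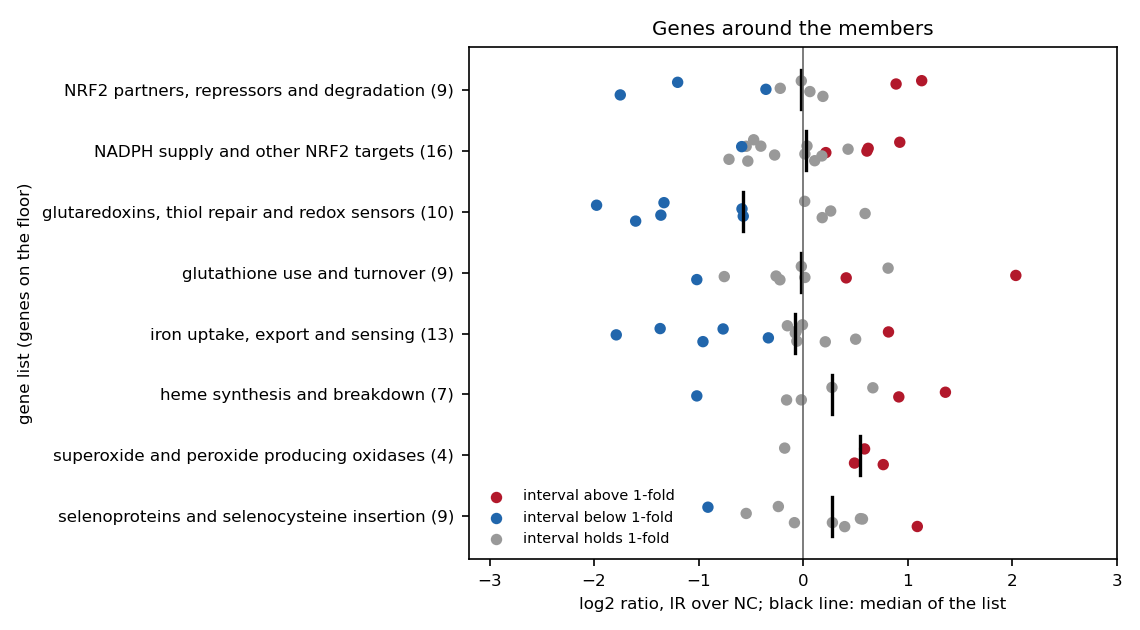
Log2 ratio of IR over NC for each gene on the floor in the 8 lists around the pathway, with the number of genes in brackets and the list's median as a black line. Points are red where the interval lies above 1-fold, blue where it lies below and grey where it holds 1-fold; glutaredoxins and thiol repair genes have 6 blue and 0 red points.

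NADPH supply and other NRF2 targets stayed near level, with 4 of 16 above, 1 below and a median of 0.03. Tkt, the transketolase of the pentose phosphate pathway, had 491 footprints in IR against 255 in NC, giving 1.90-fold (1.63 to 2.22). G6pdx, which makes NADPH at the head of that pathway, had 25 footprints in IR against 41 in NC, giving 0.602-fold (0.351 to 1.01), and it overlaps Ikbkg. Ephx1, an epoxide hydrolase, had 119 in IR and 76 in NC, and Idh2, the mitochondrial NADPH-producing isocitrate dehydrogenase, 160 footprints in IR against 238 in NC, 1.51-fold lower (1.23 to 1.85). Among glutathione use and turnover genes 2 of 9 lay above and 1 below. Mgst2, a microsomal transferase that makes leukotriene C, had 111 footprints in IR against 26 in NC, giving 4.22-fold (2.73 to 6.74). Glo1, the glyoxalase that removes methylglyoxal with glutathione, had 17 footprints in IR against 35 in NC, 2.08-fold lower (1.14 to 3.97), and reached the floor through NC. Oplah, also of glutathione turnover, had 31 in IR and 17 in NC, and Hagh 20 in IR and 34 in NC, and both intervals held 1-fold.

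The list of superoxide and peroxide producing oxidases had 4 genes on the floor, of which Cyba, Qsox1 and P4ha1 lay above and 0 below, although P4ha1 does not belong there by function. Cyba, the membrane subunit shared by NADPH oxidases, had 123 footprints in IR against 71 in NC, giving 1.71-fold (1.27 to 2.33). P4ha1, a collagen prolyl hydroxylase that consumes oxygen but is not a producer of peroxide, had 314 in IR and 206 in NC. Qsox1, a sulfhydryl oxidase, had 362 in IR and 254 in NC, and Ero1l, the oxidase of the endoplasmic reticulum, 455 in IR and 508 in NC. Selenoproteins and the enzymes that insert selenocysteine had 1 of 9 above and 1 below. Sepw1, the small selenoprotein W, had 48 footprints in IR against 90 in NC, 1.90-fold lower (1.32 to 2.75). Selenoprotein H, listed as 2700094K13Rik, had 40 footprints in IR against 18 in NC, giving 2.20-fold (1.23 to 4.07), and reached the floor through IR. Selk had 29 in IR and 19 in NC, and Sephs1 33 in IR and 48 in NC, with intervals that held 1-fold.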

How the data were processed

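Counts of mapped reads per gene were deposited for each library, per the file headers, as raw whole numbers. Reads were handled with HTSeq 0.9.1, TopHat2, Bowtie and cutadapt 1.9.3 on mm10, per the submitters' processing notes, which give no role or order and also list DESeq2 and edgeR. How strand, footprint length and multiply matching reads were treated is not given there. The 2 columns of log2 values beside the counts were not used, and the planned comparison with them was not made.

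Libraries were grouped by sample title. TMM factors (0.890 in IR, 1.12 in NC) came from edgeR, version 4.0.16, under R 4.3.3. Folds carry no pseudocount, and log2 ratios a pseudocount of 1. Intervals are 95% Clopper-Pearson bounds of the IR share of a gene's counts, and Wilson bounds for shares within a family; both cover counting error only. With 1 library per group no test was possible. The genes and lists were chosen with earlier results of these data known. All list genes were named, and of each further list the 2 highest and 2 lowest log2 ratios on the floor. Gsto1 and Rbx1 were named in addition. Older symbols were matched through RefSeq synonyms. Levels per coding length were not computed. Some marker and overlap values are not reported here. Python 3.11.15, numpy 2.4.6, scipy 1.17.1 and pandas 2.3.3 were used.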

Additional observations from a re-analysis of the deposited data

How the results depend on the processing

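Scaling, the count floor, the pseudocount and the summary of the list were varied. The folds of the further genes around the list and of the markers were not varied. Among the folds of 35 genes under 5 other scalings, 170 stayed within the counting interval, 4 moved beyond it, and 1 whose interval lay off 1-fold changed side: Prdx3, at 0.954 with total-count scaling. DESeq2 size factors and the upper quartile gave identical library sizes, so this tally holds the same folds under both names. Of genes whose interval already held 1-fold, Nfe2l2, Sod1 and Srxn1 also changed side under that scaling, Nfe2l2 without the 10 most counted genes, and Mgst1 and Txn2 under loess. The sum over the whole list reversed, to 0.881 with total counts and 0.989 without the 10 most counted genes. Total-count scaling put the list median at -0.39, 5 genes above and 9 below 1-fold (all genes 13.1% and 39.1%), and the sums at 1.04 (NRF2 group), 0.775 (glutathione peroxidases), 0.687 (thioredoxins), 0.845 (peroxiredoxins) and 1.14 (dismutases and catalase). Total counts without the 10 most counted genes gave a median of -0.23 and 0.950 for peroxiredoxins. DESeq2 size factors, the upper quartile and loess moved none of the sums, medians or counts beyond their counting interval or, for counts, by over 1.5 times. A floor of 10 counts left 5 of 28 genes at least 2-fold higher (all genes 14.6%). A floor of 100 left 0 at least 2-fold higher and 0 lower among 8 genes, with 3 above and 1 below 1-fold (all genes 12.5%, 4.58%, 38.2% and 25.8%). With at least 1 count in both libraries, 8 of 35 were at least 2-fold higher and 2 lower (all genes 17.6% and 18.9%). The shares of all genes moved with the floor as well, and Cat, Gpx7, Keap1 and Gsr drop out at the floor of 100. Pseudocounts of 0.5 and 5 gave the same list median, -0.06. The planned comparison with the deposited log2 values was not run. No paired analysis was possible because each group has 1 library. Depth limits the 11 genes below the floor, for which only very large folds could be seen.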
